A study of Mus musculus with 9 samples.

Results

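The resident Kupffer cell markers are 10 genes chosen by name, Clec4f, Timd4, Vsig4, Cd5l, Marco, Cd163, Folr2, C1qa, C1qb and C1qc. All 10 were found among the 24411 genes of the count table, and all 10 were among the 11199 genes tested. RNA was measured in 9 mouse livers, 3 in each of 3 groups, and the mice were 3 months old. All mice carried floxed alleles of Atg7, a gene needed to form autophagosomes (Atg7flox/flox). The livers called cont. had no Cre recombinase. The Atg7-KO livers also carried Alb-Cre, Cre under the albumin promoter, which acts in hepatocytes. The S351A livers carried both of these and the p62S351A allele on both copies, a mutant of the autophagy adaptor p62 that binds KEAP1 less well. For S351A replicates 2 and 3 the labels give a genotype with a neighbouring position on 1 copy of p62, and the titles were followed. Macrophages do not express albumin and so keep Atg7 in this model, whereas the p62 allele is carried by all cells.

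Kupffer cells are the macrophages that reside in the liver sinusoids, where they take up particles, dying cells and old red cells from the blood. Most arise from embryonic precursors and renew themselves, and CLEC4F and TIMD4 are used to tell them from macrophages that come from blood monocytes. Monocyte-derived cells that enter the Kupffer niche gain CLEC4F early and TIMD4 late. The 3 chains of C1q, the recognition molecule of the classical complement pathway, are made by macrophages of many kinds, so they do not separate resident from recruited cells.

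The members did not move together. The C1q chains were higher in Atg7-KO livers than in cont. livers, 2.64-fold for C1qa, 3.94-fold for C1qb and 3.25-fold for C1qc. Cd163 was 12.5-fold lower and Timd4 3.79-fold lower, and the other 5 members, Clec4f among them, were not called. In S351A livers C1qb and C1qc were higher and Cd163 lower than in cont. livers, and no member was called between S351A and Atg7-KO livers. These are whole livers, so fewer cells of a type and less RNA per cell cannot be told apart.

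The C1q genes lie side by side on chromosome 4 of mm10, within 18675 bases from 136880129 to 136898803, in the order C1qb, C1qc and C1qa and all on the - strand. The other members lie apart. Clec4f (83644542 to 83656187, - strand) and Cd163 (124304656 to 124330527, + strand) are on chromosome 6, Timd4 on chromosome 11 (46810800 to 46844332, + strand) and Vsig4 on chromosome X (96247203 to 96293438, - strand). Cd5l is on chromosome 3 (87357881 to 87371073, + strand), Marco on chromosome 1 (120474538 to 120505024, - strand) and Folr2 on chromosome 7 (101839988 to 101857194, - strand). All are protein-coding genes in GENCODE release M21. Folr2 overlaps the annotated genes Gm10602 and Gm45319, and the strand setting of the counting was not given in the sources used here, so its counts may include reads of these genes.

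The promoters of the members that rose or fell are shown because the C1q genes moved together and Timd4 and Cd163 moved the other way. RefSeq promoters (GRCm38.p6) were found for 9 of the 10 members, and C1qa had no entry in the table used. Each sequence is the 250 bases before the start, 5′ to 3′ on the gene's strand. Capitals mark matches, on either strand, to 3 of the 6 motifs searched, GAGGAA (the core bound by PU.1, the macrophage lineage factor), AGGTCA (a nuclear receptor site) and TGACNNNGC (the core of the antioxidant response element bound by NRF2).
C1qb promoter, chr4:136886201-136886450, - strand: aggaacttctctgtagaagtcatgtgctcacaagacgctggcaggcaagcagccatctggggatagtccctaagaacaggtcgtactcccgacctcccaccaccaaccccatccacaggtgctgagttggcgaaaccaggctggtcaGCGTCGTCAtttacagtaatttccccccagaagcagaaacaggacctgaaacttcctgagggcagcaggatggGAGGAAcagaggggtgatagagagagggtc
C1qc promoter, chr4:136892915-136893164, - strand: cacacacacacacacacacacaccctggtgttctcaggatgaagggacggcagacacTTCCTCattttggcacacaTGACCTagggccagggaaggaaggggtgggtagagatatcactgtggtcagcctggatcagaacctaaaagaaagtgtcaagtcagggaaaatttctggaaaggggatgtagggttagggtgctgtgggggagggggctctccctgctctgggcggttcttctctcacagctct
Timd4 promoter, chr11:46810549-46810798, + strand: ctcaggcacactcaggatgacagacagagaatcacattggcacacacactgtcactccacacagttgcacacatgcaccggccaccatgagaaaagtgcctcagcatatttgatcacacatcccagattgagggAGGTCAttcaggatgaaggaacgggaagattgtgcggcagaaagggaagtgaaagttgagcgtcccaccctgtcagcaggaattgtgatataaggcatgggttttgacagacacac
Cd163 promoter, chr6:124304401-124304650, + strand: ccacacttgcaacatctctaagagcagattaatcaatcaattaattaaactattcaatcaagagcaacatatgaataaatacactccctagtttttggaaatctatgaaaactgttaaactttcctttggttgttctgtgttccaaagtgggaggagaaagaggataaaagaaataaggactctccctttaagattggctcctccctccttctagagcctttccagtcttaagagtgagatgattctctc

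In C1qb, GAGGAA began 30 bases before the start and TGACNNNGC 103 bases before it. In C1qc, GAGGAA began 193 and AGGTCA 174 bases before the start, and in Timd4 AGGTCA began 116 bases before it. None of the 6 motifs matched in the Cd163 window. Over all members with a promoter, GAGGAA was found in Vsig4 (at 2 positions), Cd5l, Marco, C1qb and C1qc. AGGTCA was found in Clec4f, Timd4 and C1qc, and TGACNNNGC in Clec4f, Folr2 and C1qb. Of the 32851 promoters in the table, 23.3% held GAGGAA, 14.0% AGGTCA and 10.2% TGACNNNGC in a window of this length. The AP-1 motif TGANTCA (6.75% of promoters) matched in Folr2 only, and CACGTG, the E-box of MiT factors (6.02%), and GCTGACT, a MAF site (3.77%), matched in no member. Folr2 had 2 windows, so it had more room for a match than the other members. TGACNNNGC matched in that from 101857191 to 101857440, and TGANTCA in that from 101845332 to 101845581, which lies within the gene. The motifs do not overlap each other in these windows, and a match is a description of the sequence only.

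Library totals ran from 1875314 to 15426566 counts in cont. livers, from 1945469 to 3675041 in Atg7-KO livers and from 713835 to 792366 in S351A, so depth and the p62 allele cannot be told apart. Levels are CPM, counts scaled to a common library size, on the TMM scale, which sets the bulk of genes level between libraries. A library in which a gene has 3 counts or fewer is taken to be at its floor, which was 0.267 to 1.89 CPM in cont. livers, 0.691 to 1.36 CPM in Atg7-KO livers and 3.42 to 3.70 CPM in S351A. Atg7 itself was at 44.8, 57.3 and 42.1 CPM in cont. livers, at 29.9, 27.8 and 28.2 CPM in Atg7-KO livers and at 21.7, 24.7 and 22.1 CPM in S351A. Atg7 was thus lowest where Cre was present, with no overlap, and edgeR gave adjusted p-values of 0.00757 and 0.00318 against cont. By sex-linked genes, cont. held 1 female and 2 males, whereas each of the other groups held 2 females and 1 male.

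Between genes, levels were compared per kilobase of exon. In cont. livers Clec4f stood first at 57.3 ± 12.7 CPM per kilobase (SD, n = 3), above every value of C1qa, the next gene at 28.9. C1qa overlapped Cd5l (23.7 CPM per kilobase), Cd5l overlapped C1qb (18.8), and C1qb was above C1qc (8.42) with no overlap. From C1qc down, through Vsig4 (8.41), Folr2 (4.15), Timd4 (3.52), Marco (3.02) and Cd163 (2.81), each gene overlapped its neighbour. In Atg7-KO livers C1qa (78.9 CPM per kilobase) and C1qb (74.9) had the highest means, followed by Clec4f (51.3). C1qa overlapped Clec4f, whereas C1qb did not, and C1qc (28.7) lay below every value of Clec4f. In S351A livers C1qb (53.5), C1qa (48.6), Clec4f (37.6) and C1qc (18.9) were the first 4, each overlapping the next. Cd163 was last in all 3 groups.

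**Figure D1:**
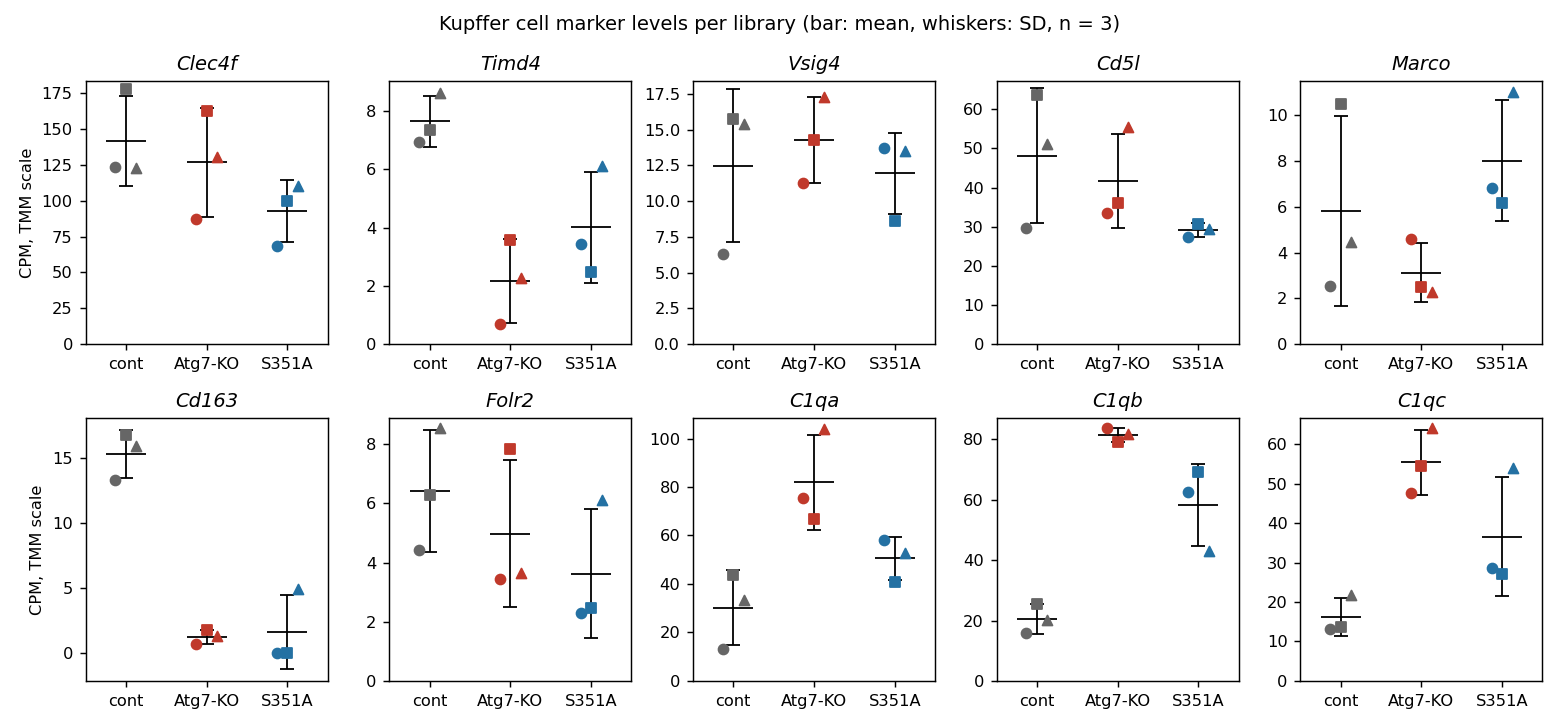
Level of each member in each library, in CPM on the TMM scale, with a panel per gene and its own axis; circles, squares and triangles are replicates 1, 2 and 3, and bars and whiskers are the mean and SD of 3 libraries. All 3 Atg7-KO libraries lie above all 3 cont. libraries for C1qa, C1qb and C1qc and below them for Timd4 and Cd163.

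Comparing Atg7-KO with cont. livers asked what the loss of autophagy in hepatocytes did to the markers. C1qb, which encodes the B chain of C1q, was at 15.8, 25.5 and 20.01 CPM in cont. livers and at 83.6, 79.1 and 81.8 CPM in Atg7-KO. The groups were far apart, and the Atg7-KO libraries differed by less than the cont. libraries did. The log2 fold change was 1.98 (SE 0.23, edgeR adjusted p = 4.55e-05). All adjusted p-values of single genes come from the quasi-likelihood test of edgeR, adjusted by the Benjamini-Hochberg method over all genes tested. C1qa, the A chain, was at 13.3, 43.7 and 33.4 CPM in cont. livers and at 75.3, 66.7 and 104 CPM in Atg7-KO. C1qa rose by 1.40 on the log2 scale (SE 0.33, adjusted p = 0.00504), and it was the chain with the widest spread in cont., where replicate 1 was low. C1qc, the C chain, was at 13.3, 13.6 and 21.9 CPM in cont. livers and at 47.7, 54.5 and 64.1 CPM in Atg7-KO. Its log2 fold change was 1.70 (SE 0.28, adjusted p = 5.77e-04), and here too no libraries overlapped.

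Cd163, the scavenger receptor that takes up haemoglobin bound to haptoglobin, was at 13.3, 16.8 and 15.9 CPM in cont. livers and at 0.691, 1.78 and 1.36 CPM in Atg7-KO. Every cont. library was higher than every Atg7-KO library, where Cd163 had 3, 5 and 3 counts against 21, 48 and 179 in cont. The log2 fold change was -3.64 (SE 0.56, edgeR adjusted p = 3.59e-04). Pooled over the libraries of a group, 248 counts in cont. and 11 in Atg7-KO gave a 13.4-fold lower level, with a 95% interval of 7.38 to 27.3 for counting error alone. Intervals of this kind and the floors cover counting error only, since reads are not independent molecules.

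Timd4, a receptor for phosphatidylserine on dying cells, was at 6.95, 7.34 and 8.63 CPM in cont. livers and at 0.691, 3.56 and 2.27 CPM in Atg7-KO. All Atg7-KO libraries were below all cont. libraries, and replicate 1 of Atg7-KO was at its floor with 3 counts. Timd4 fell by 1.92 on the log2 scale (SE 0.49, edgeR adjusted p = 0.00814). Its counts were low, 18 in Atg7-KO as a whole, and the change was -1.38 (edgeR adjusted p = 0.0456) without Atg7-KO replicate 1 and -2.55 (adjusted p = 0.00761) without replicate 2. With libraries scaled by their totals it was -1.37 (adjusted p = 0.0382). Both Timd4 and Cd163 reached the test through their level in cont.: all 3 cont. libraries but no Atg7-KO library and 1 S351A library passed the filter on low counts, so that their being tested already rested on a high level there. With no filter the changes were -1.97 for Timd4 and -3.69 for Cd163, and both stayed called.

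The other 5 members were not called between Atg7-KO and cont. livers. Clec4f, a lectin that in mice is found on Kupffer cells, was at 124, 178 and 123 CPM in cont. livers and at 87.1, 163 and 130 CPM in Atg7-KO. The groups overlapped, and the log2 fold change was -0.16 with a 95% interval of -0.75 to 0.42 (edgeR adjusted p = 0.670). Cd5l, which encodes a secreted protein made by tissue macrophages, was at 29.7, 63.6 and 51.1 CPM in cont. livers and at 33.6, 36.0 and 55.4 CPM in Atg7-KO. Its change was -0.24 (interval -0.83 to 0.35), again with overlap. Vsig4, the complement receptor of Kupffer cells that binds C3 fragments, had a log2 fold change of 0.10 (interval -0.60 to 0.80). The folate receptor Folr2 had -0.46 (interval -1.38 to 0.45), and Marco, a scavenger receptor for bacteria and particles, had -0.84 (interval -1.93 to 0.25). Marco had -0.25 without cont. replicate 2 and -1.29 without Atg7-KO replicate 1. These intervals leave room for changes of either sign, widest for Marco, which had 5 to 20 counts in an Atg7-KO library.

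Thus edgeR called 3 members higher and 2 lower in Atg7-KO, beside 19.9% of all genes tested called higher and 18.1% called lower. The same 3 and 2 were the members whose libraries did not overlap between the groups, which held for 26.7% of all genes in the higher and 24.9% in the lower direction. At these background rates, 5 of 10 members called is close to the share of all genes. The median log2 fold change was 1.70 over the 3 C1q chains and -0.46 over the 7 other members, against -0.03 over all genes.

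**Figure D2:**
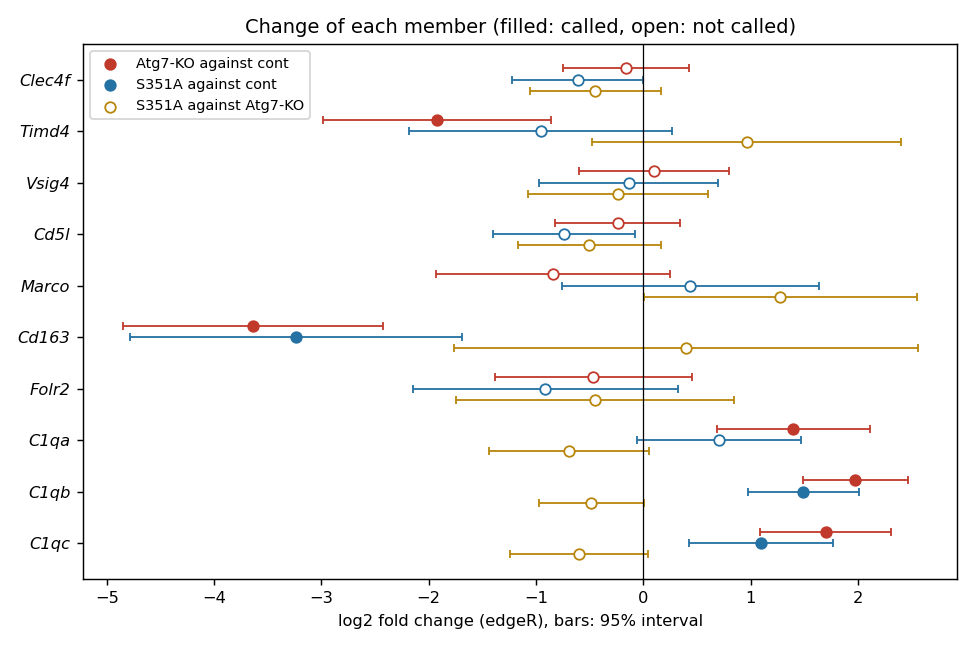
Log2 fold change of each member in the 3 comparisons, with 95% intervals from edgeR; filled points were called (adjusted p under 0.05 and a fold change above 1.5) and open points were not. The C1q chains lie to the right and Cd163 furthest to the left in both comparisons with cont., which share the cont. libraries, and every S351A against Atg7-KO point is open.

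The livers with the p62 allele were compared with the same cont. libraries, so the 2 comparisons with cont. are not independent. C1qb was at 62.7, 69.0 and 42.9 CPM in S351A, above all cont. libraries, and its log2 fold change against cont. was 1.49 (SE 0.24, edgeR adjusted p = 8.04e-04). C1qc was at 28.5, 27.1 and 53.9 CPM in S351A, also without overlap, at 1.10 (SE 0.31, adjusted p = 0.0187). C1qc was not past the threshold without S351A replicate 3, its highest library (0.69, adjusted p = 0.106), or without cont. replicate 2 (0.95, adjusted p = 0.0512). C1qa was at 58.2, 40.7 and 52.7 CPM in S351A and overlapped cont. replicate 2. Its change of 0.71 (interval -0.06 to 1.47, adjusted p = 0.151) was not called under TMM scaling, but it was called at 1.21 with total library size (adjusted p = 0.0182) and at 1.05 without the 20 top genes (adjusted p = 0.0370).

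Cd163 had no count in S351A replicates 1 and 2 and 4 counts in replicate 3, which was at 4.90 CPM. Counts of 0 allow up to 3.42 and 3.70 CPM in these shallow libraries, which is still below the 13.3 CPM of the lowest cont. library. The fitted log2 fold change was -3.24 (SE 0.71, edgeR adjusted p = 0.00544), a value that rests on replicate 3. Without replicate 1 it was -2.65 (edgeR adjusted p = 0.0271), and without replicate 3, when both remaining libraries had no count, the fit gave -8.70, which is no bound. Pooled counts gave a 9.90-fold lower level with a 95% counting interval of 3.82 to 36.6.

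Clec4f was not called in S351A against cont. It was at 68.4, 99.9 and 110 CPM in S351A, below all cont. libraries, and its log2 change was -0.61 (edgeR adjusted p = 0.122). Timd4, at 3.42, 2.47 and 6.13 CPM from 2 to 5 counts, was also below all cont. libraries, at -0.96 (interval -2.18 to 0.27, adjusted p = 0.226). Cd5l, at 27.4, 30.8 and 29.4 CPM, overlapped cont. replicate 1 and had -0.74 (interval -1.40 to -0.08, adjusted p = 0.0867). With sex as a covariate Clec4f (-0.83, adjusted p = 0.0111) and Cd5l (-0.87, adjusted p = 0.0375) were both called lower. Cd5l was also called lower with no filter (-0.85, edgeR adjusted p = 0.0213) and without cont. replicate 1 (-0.99, adjusted p = 0.0163). Folr2 had -0.91, Vsig4 -0.14 and Marco 0.44, each with overlapping libraries.

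Over the members, 2 were called higher and 1 lower in S351A against cont., beside 15.6% and 13.0% of all genes. Libraries did not overlap for 2 members in the higher and 3 in the lower direction, beside 19.6% and 18.4% of all genes. The F test over all 3 groups passed the threshold for 5 members, Timd4, Cd163, C1qa, C1qb and C1qc, beside 35.1% of all genes. Without Atg7-KO replicate 3 it passed for 3 members. These counts are again near the background.

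Between S351A and Atg7-KO livers, which differ in p62, edgeR called 0 members in either direction, as did DESeq2 and limma-voom. Of all genes, 0% were called higher and 0.00893% lower, so edgeR called almost nothing here. DESeq2 called 23 genes higher and 17 lower, and edgeR with no filter on low counts 61 and 37. At an unadjusted p under 0.05 there was 1 member, Marco, and 739 of the 11199 genes. Marco was at 6.84, 6.16 and 11.03 CPM in S351A and at 4.61, 2.49 and 2.27 CPM in Atg7-KO, with no overlap and a log2 change of 1.28 (edgeR adjusted p = 0.754), from 5 to 9 counts in an S351A library. It passed the filter on low counts in all 3 S351A libraries but in only 1 library of each other group, so that its being tested rested on its level in S351A. The C1q chains were lower in the fit, C1qa at -0.69 (interval -1.44 to 0.05), C1qb at -0.48 (interval -0.97 to 0.00) and C1qc at -0.60 (interval -1.24 to 0.04), with edgeR adjusted p-values from 0.755 to 0.785. Libraries did not overlap for Marco in the higher direction (7.67% of all genes) and for Cd5l, C1qa and C1qb in the lower (9.23% of all genes). The intervals do not exclude a return of C1qa by over 1 on the log2 scale, nor no change.

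Ratios of counts within a library need no scaling between libraries, and 13 of them were compared in 3 pairs of groups. All ratios and folds of ratios are given with 0.5 added to both counts, which moves ratios of low counts most. With 3 libraries against 3 the exact two-sided permutation test cannot go below p = 0.1, so no ratio could pass a threshold, and the 39 p-values were adjusted together. The ratio of the summed counts of the 7 members other than C1q to the summed C1q counts was 4.39, 3.59 and 3.02 in cont. livers. In Atg7-KO it was 0.685, 1.14 and 0.851, and in S351A 0.817, 1.10 and 1.21. Every cont. library was thus above every library with Cre, and the last 2 groups overlapped. The ratio was 4.15-fold lower in Atg7-KO than cont. (log2 difference -2.05, exact permutation p = 0.1, adjusted p = 0.170) and 3.52-fold lower in S351A than cont. (-1.82, the same p-values). Between S351A and Atg7-KO the log2 difference was 0.24 (exact permutation p = 0.5).

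Gene by gene, all 7 ratios to C1q were lower in Atg7-KO than in cont. with no overlap. Cd163 to C1q differed most, 38.5-fold, followed by Timd4 (13.5-fold), Marco (5.52-fold) and Folr2 (4.52-fold). For Timd4 to C1q the log2 difference was -3.75, and -3.15 without Atg7-KO replicate 1 and -4.28 without replicate 2. Clec4f to C1q was 3.85-fold and Cd5l to C1q 3.83-fold lower, and Vsig4 to C1q 2.80-fold lower. In S351A against cont., 6 of the 7 were lower with no overlap, and Marco to C1q overlapped. All these ratios share the C1q counts, which had risen, so they are not independent of each other.

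Timd4 was also set against Clec4f, a ratio that leaves C1q out. With 0.5 added to both counts, this ratio was 0.0585, 0.0422 and 0.0704 in cont. livers, 0.00925, 0.0230 and 0.0191 in Atg7-KO livers and 0.0579, 0.0307 and 0.0608 in S351A. The Atg7-KO libraries were below all others, 3.50-fold below cont. and 2.98-fold below S351A, whereas S351A and cont. overlapped (exact permutation p = 0.1, 0.1 and 0.6). The S351A values rest on 2 to 5 Timd4 counts. Timd4 to C1q and Marco to C1q were the other 2 ratios higher in S351A than Atg7-KO with no overlap. Among the chains, C1qb to C1qa and C1qc to C1qa overlapped in all 3 comparisons.

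**Figure D3:**
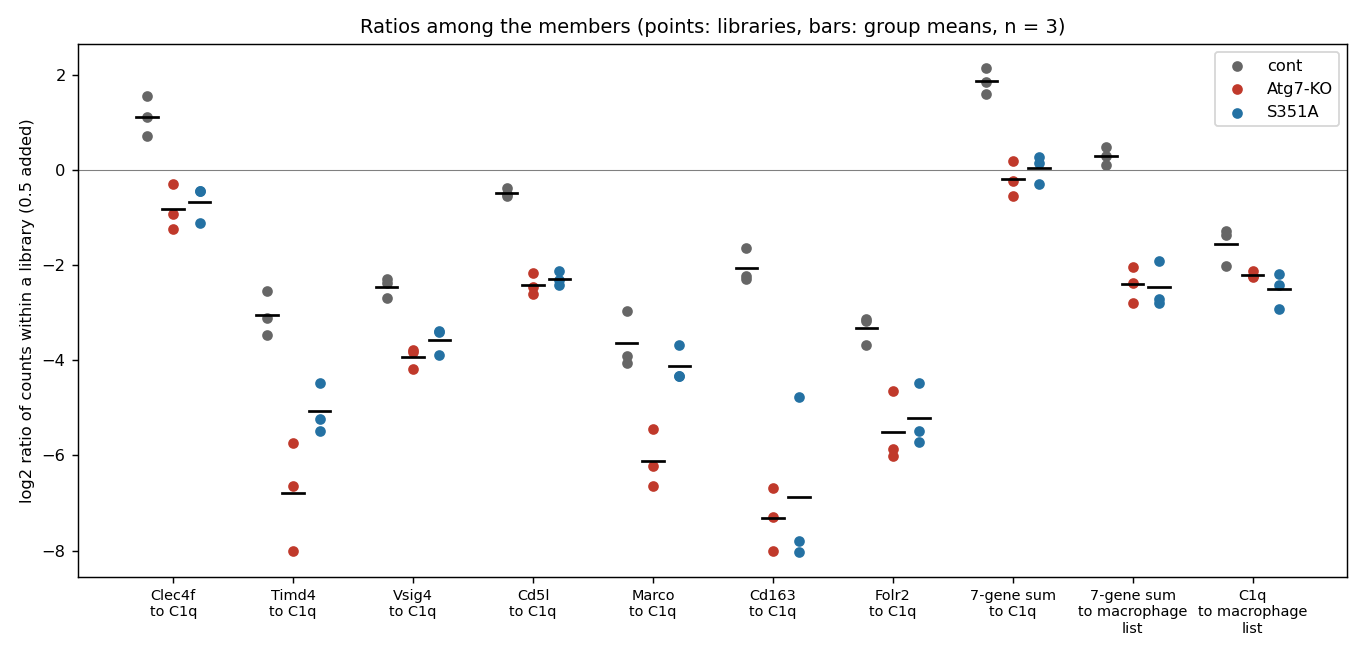
Log2 ratio of counts, with 0.5 added to both, within each library for the 7 members other than C1q against summed C1q, for their sum against C1q and against 12 general macrophage genes, and for C1q against those genes; points are libraries and bars are means of 3. In 9 of the 10 ratios shown, all cont. libraries lie above all libraries of both other groups, and Marco to C1q overlaps with S351A.

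As a share of the counts of all 10 members, the C1q chains took 21.7% ± 3.21 in cont. livers (SD, n = 3), 53.4% ± 6.35 in Atg7-KO livers and 49.3% ± 5.13 in S351A. Clec4f took 47.1% ± 6.65 in cont. livers, 30.4% ± 6.71 in Atg7-KO livers and 31.1% ± 5.15 in S351A. Cd163 went from 5.15% in cont. to 0.303% in Atg7-KO and 0.494% in S351A, and Timd4 from 2.60% to 0.507% and 1.32%. The summed level of the 7 members other than C1q was 237 ± 56.4 CPM in cont. livers, 194 ± 46.4 CPM in Atg7-KO livers and 151 ± 29.7 CPM in S351A, with libraries of cont. above those of S351A and overlapping those of Atg7-KO. Summed C1q was 66.8 ± 21.6, 219 ± 27.0 and 145 ± 7.28 CPM in the same order, with no overlap between any of the groups.

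**Figure D4:**
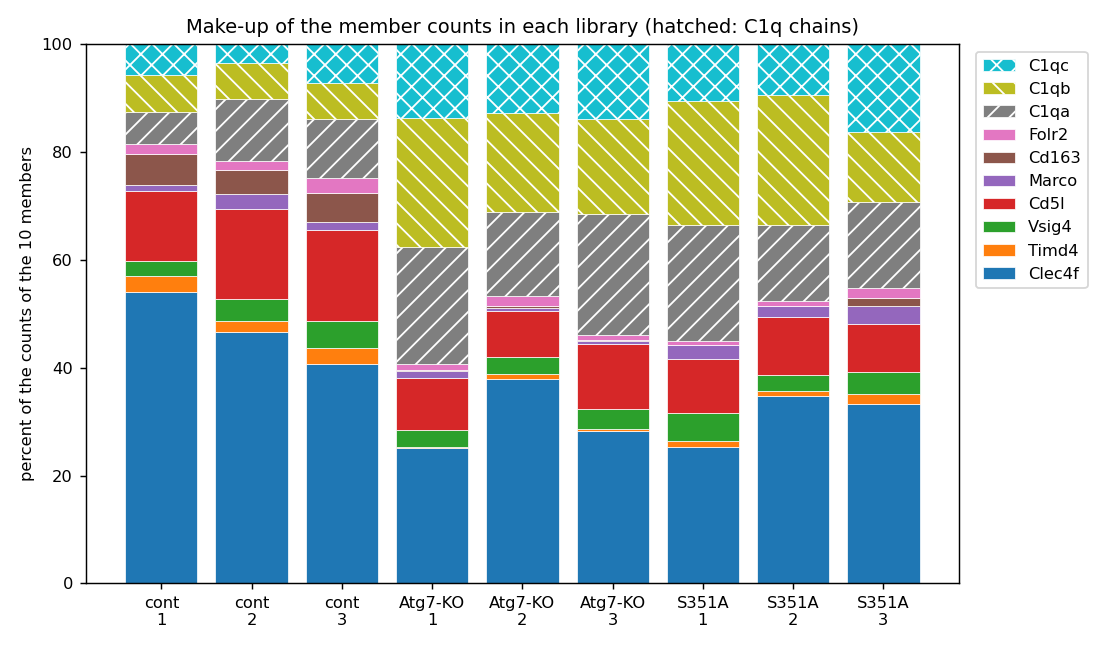
Share of each member, in percent, in the counts of the 10 members in each library; hatched segments are the C1q chains. The hatched share is 18.5% to 24.9% in the cont. libraries and 45.2% to 59.4% in the other 6 libraries, and the brown Cd163 segment is thickest in the cont. libraries.

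Markers of other cells that could share the members moved with the C1q chains, and their part in the results was not tested. Of 12 genes of macrophages of any origin, 12 were called higher in Atg7-KO (median log2 fold change 1.99) and 11 in S351A (median 1.31), beside 19.9% and 15.6% of all genes. The exception in S351A was Ptprc at 1.19 (edgeR adjusted p = 0.0511). The summed level of the 12 genes was 174 to 215 CPM in cont. livers, 941 to 1099 CPM in Atg7-KO livers and 681 to 1048 CPM in S351A. Mpeg1, a pore-forming protein of phagocytes, was at 57.8 ± 13.7 CPM in cont. livers and 387 ± 24.6 CPM in Atg7-KO (log2 fold change 2.75, edgeR adjusted p = 1.18e-05), and Cybb, the NADPH oxidase subunit, at 18.0 ± 5.61 and 205 ± 6.83 CPM (3.51). The ratio of summed C1q to the sum of the 12 genes was 1.56-fold lower in Atg7-KO and 1.93-fold lower in S351A than in cont., with no overlap (exact permutation p = 0.1 for both, the smallest this design allows). The sum of the 7 other members was 6.47-fold and 6.80-fold lower against the same genes. Both ratios weigh Mpeg1 and Cybb most, which had the highest levels of the 12 genes in both groups with Cre. Single genes of the 12 rose by 1.20 (Lyz2) to 3.51 (Cybb) on the log2 scale in Atg7-KO and by 0.99 (Lyz2) to 3.64 (Cybb) in S351A. The C1q chains rose by 1.40 to 1.98 and by 0.71 to 1.49.

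Among 12 genes of recruited monocytes and lipid-associated macrophages, 10 were tested, and 9 were called higher in Atg7-KO and 8 in S351A, beside 19.9% and 15.6% of all genes. For 7 of these 10, Cx3cr1 and Clec7a among them, no cont. library passed the filter on low counts, so they were tested through their level in the livers with Cre and these counts are partly set by the filter. Cx3cr1, the fractalkine receptor, was at 2.75 ± 1.55 CPM in cont. livers, 70.7 ± 19.9 CPM in Atg7-KO livers and 65.9 ± 21.9 CPM in S351A. Spp1, which biliary cells also make, was at 34.8 ± 9.39, 728 ± 138 and 597 ± 158 CPM. Clec7a (log2 fold change 2.96 in Atg7-KO and 3.39 in S351A) and Cd9 (2.88 and 2.19) were called as well. The summed level of the list was 46.1 to 78.1 CPM in cont. livers, 842 to 1177 CPM in Atg7-KO livers and 678 to 1047 CPM in S351A. Spp1 made up most of this sum in the livers with Cre, so the sum is not particular to macrophages. Gpnmb and Chil3 had no count in any cont. library.

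**Figure D5:**
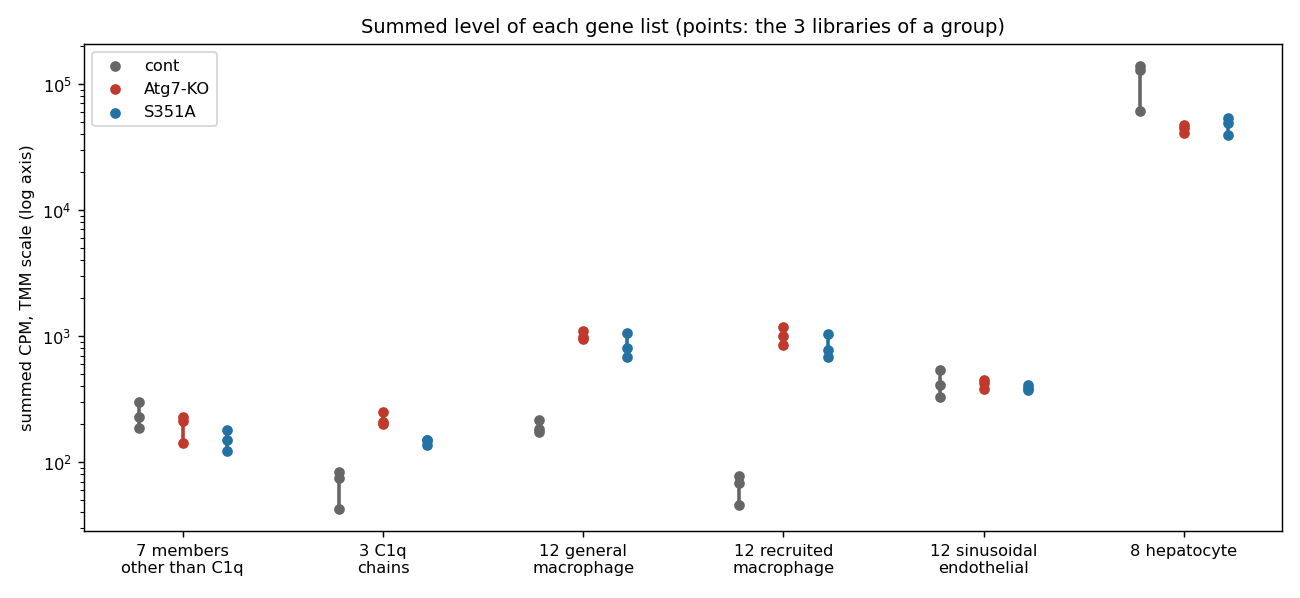
Summed level of 6 gene lists in each library, in CPM on the TMM scale on a log axis; points are libraries and lines join the libraries of a group. The 7 members other than C1q lie between 122 and 298 CPM in all libraries, with S351A (122 to 181 CPM) below cont. (187 to 298 CPM). The C1q chains and both macrophage lists are higher in Atg7-KO and S351A than in cont. and the hepatocyte list is lower. Spp1, which biliary cells also make, is most of the recruited macrophage sum in Atg7-KO and S351A.

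Other genes that mark Kupffer cells were given by a further list. Of 13, 9 were tested, with a median of 0.16 in Atg7-KO. There 1 was called higher (Adgrg2, 1.75) and 1 lower (C6, -2.95), beside 19.9% and 18.1% of all genes. In S351A only Adgrg2 was called (2.99), beside 15.6% of all genes called higher and 13.0% lower. Adgrg2 passed the filter in no cont. library. C6, a complement protein, spread widely in cont., at 228 ± 225 CPM. The 3 other genes of the list with most counts were not called, Slc40a1, the iron exporter ferroportin (0.61, edgeR adjusted p = 0.0539), Kcna2 (-0.21) and Cd38 (0.05) in Atg7-KO against cont.

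Transcription factors of Kupffer cell identity were mixed. In Atg7-KO, edgeR called 4 of the 9 tested higher (Id1, Zeb2, Spi1 and Irf8) and 1 lower (Rxra), beside 19.9% and 18.1% of all genes. Spic did not pass the filter and was not tested. Whether the RNA of these factors came from Kupffer cells or from other cells was not tested. In S351A, too, Id1, Zeb2, Spi1 and Irf8 were called higher and Rxra lower, beside 15.6% and 13.0% of all genes. Spi1, which encodes PU.1 and passed the filter in no cont. library, had log2 fold changes of 2.20 and 1.92, and Rxra, a nuclear receptor also found in hepatocytes, had -0.88 and -0.91. Nr1h3, which encodes LXR-alpha and is also expressed by hepatocytes, had -0.50 (edgeR adjusted p = 0.0841) and -0.31 (adjusted p = 0.314), and Id3 had -0.66 and -0.36. Maf had 0.64 and 0.66, with adjusted p-values of 0.0702 and 0.0818, so none of these 3 was called.

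Of the signals that keep Kupffer cells in place, and their receptors, 8 were tested, and Bmp10 did not pass the filter. In Atg7-KO 4 were called higher and in S351A 3, beside 19.9% and 15.6% of all genes. Of the 8, 4 passed the filter in no cont. library, and these gave 2 of the 4 calls in Atg7-KO and 1 of the 3 in S351A. Csf1, the growth factor of macrophages, was at 19.96 ± 2.41 CPM in cont. livers, 71.9 ± 7.97 CPM in Atg7-KO livers and 48.4 ± 9.47 CPM in S351A (log2 fold changes 1.85 and 1.28). Its receptor Csf1r, which is also in the general macrophage list, had 1.42 and 1.13. Gdf2, a ligand made by stellate cells, and Notch2 were not called.

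Ligands and partners of the members were mostly products of hepatocytes. In Atg7-KO, 2 of the 8 tested were called higher and 1 was called lower, near the 19.9% and 18.1% of all genes. In S351A 3 were called higher, beside 15.6% of all genes, the third being Cp, ceruloplasmin (0.82). Hp, haptoglobin, which carries haemoglobin to CD163, was at 3587 ± 1122 CPM in cont. livers and 3794 ± 112 CPM in Atg7-KO (log2 fold change 0.08, edgeR adjusted p = 0.845). Gas6, a bridge to dying cells, was called higher in Atg7-KO (2.29) and S351A (2.28), as was its receptor Axl (1.96 and 1.19), whereas the receptor Mertk was called lower in Atg7-KO only (-1.58, with -1.14 in S351A, adjusted p = 0.0556). Among 6 other proteins of the classical complement pathway, 1 was called lower in Atg7-KO, near the 18.1% of all genes, and none was called in S351A. The 1 called was C1s1, the protease that acts with C1q (-0.81). C3 had -0.47 and -0.37 and was not called.

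Genes of the cell types next to the Kupffer cell were counted in the same way. Of 11 sinusoidal endothelial genes tested, 1 was called higher and 4 lower in Atg7-KO, with Lyve1 at 2.03 and Stab2 at -1.03, and 1 higher and 1 lower in S351A. Of 8 secreted products of hepatocytes, 7 were called lower in both groups, with Alb at -1.17 and -1.15. Erythroid genes, whose RNA comes with the blood in the tissue, had 2 of 3 called lower in both groups, Hba-a2 (-2.07 and -1.70) and Alas2 (-3.27 and -2.32). Few lymphocyte (2 of 11), neutrophil (1 of 8), dendritic cell (3 of 7) and large peritoneal macrophage genes (3 of 5) had enough counts to be tested, and Cd8a, Csf3r, Xcr1, Siglech and Gata6 were called higher in both groups. Of these, only Gata6 passed the filter in a cont. library. Between S351A and Atg7-KO no gene of any list was called.

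Across the 9 libraries, the genes whose log2 CPM followed summed C1q most closely, members left out, were Adgre5 (Pearson r = 0.996), Mov10 (0.989), Shisa5 (0.987), Fcer1g (0.985) and Chmp4b (0.984). Fcer1g, the common gamma chain of Fc receptors, is in the general macrophage list. The genes that followed Clec4f most closely were Abcg8 (0.970), Rusc2 (0.942), Cutc (0.921), Abcg5 (0.913) and Eif1ad (0.910). Abcg5 and Abcg8 encode the subunits of a sterol transporter and are expressed by hepatocytes. These values describe 9 libraries in 3 groups, with depth and genotype in common, and were picked as the highest of all genes tested.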

How the data were processed

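The authors sequenced poly(A) RNA from 9 livers with 75-bp single-end reads, which were trimmed with Trim Galore, mapped to mm10 with STAR and quantified by RSEM. Values in the deposited table are expected counts, that is, estimated counts per gene without scaling between libraries, of which 4.40% to 7.75% were not whole; they were rounded. The annotation, strand setting and versions were not given in the sources used here. Titles gave the groups and replicate numbers, and each title names a mouse.

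Of 24411 genes, 23376 had a name in GENCODE M21. The counts were fitted in edgeR 4.0.16 (R 4.3.3). The function filterByExpr (minimum count 10, minimum total 15) kept 11199 genes, libraries were scaled by TMM, and 1 quasi-likelihood model was fitted to all 9 libraries. A gene was called at a Benjamini-Hochberg adjusted p under 0.05 and a fold change above 1.5. Standard errors and intervals follow from the F statistic. Ratios within a library had 0.5 added to both counts, as printed and on the log2 scale, and were compared by exact permutation (SciPy 1.17.1). On simulated counts for Atg7-KO against cont., 15% of genes changed by 1 on the log2 scale and 89% of those changed by 2 were recovered among 100 each, with 4 false calls.

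The members, the gene lists, the motifs and the tests were chosen with earlier results of these data known. The text names all members, Atg7, and up to 4 tested genes with most counts from each other list, and the 5 genes most like summed C1q and Clec4f. Called genes of these lists named beyond that rule, with Ptprc, Gpnmb and Chil3, were chosen after their values were seen. Spic and Bmp10 are named as not tested. One gene of the transcription factor list is not reported here and was left out of that list's counts. Alternatives were scaling by RLE, by library totals or by totals without the 20 top genes, testing with no filter or with a minimum of 10 counts in all libraries, DESeq2 1.42.0, voom (limma 3.58.1), the 6 compared libraries alone, replicate number or sex as a covariate, no fold minimum, 1 as the ratio pseudocount, the mean of single-gene ratios, and leaving out each library.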

Additional observations from a re-analysis of the deposited data

How the results depend on the processing

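Of 548 log2 fold changes of members over all alternatives, 524 kept their direction and side of the threshold, 16 changed sign, 6 passed the threshold anew and 2 lost it. Of 354 log2 differences of ratios, 339 kept their direction and 15 changed sign, and of 78 counts of members, 74 stayed within 1.5 times. The same 5 members were called in Atg7-KO against cont. in all alternatives but the filter of at least 10 counts in every library, which left 5 members to test and 3 called, and 3 that differed among all groups. With sex as a covariate 5 members were called in S351A against cont. Leaving out each library gave 5 called members in Atg7-KO against cont. throughout, 2 to 4 in S351A against cont. and 0 in S351A against Atg7-KO, and 3 to 6 that differed among the groups. The lowest count, 3, came without Atg7-KO replicate 3. Cd5l was called lower in S351A against cont. with no filter (-0.85, edgeR adjusted p = 0.0213) and without cont. replicate 1 (-0.99, adjusted p = 0.0163).

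Scaling by total library size shifted the median change over all genes by 0.54 (Atg7-KO) and 0.49 (S351A) on the log2 scale against cont., and calls in Atg7-KO went from 2226 higher and 2028 lower to 4284 and 801. In S351A against cont. they went from 1746 higher and 1460 lower to 3498 and 512. Library size without the 20 top genes moved the medians by 0.39 and 0.34, with 3572 higher and 1049 lower, and 2813 and 717. Under total size Clec4f (0.36), Cd5l (0.31) and Folr2 (0.10) in Atg7-KO and Vsig4 (0.38) in S351A turned positive against cont., none of them called. Without the top genes these were 0.22 for Clec4f, 0.15 for Cd5l and 0.21 for Vsig4. The C1q chains, Cd163 and Timd4 kept their direction against cont. under every scaling. In limma-voom, Cd163 in S351A against Atg7-KO was -0.013, against 0.40 in edgeR.

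Leaving out each library gave log2 fold changes against cont. of -0.39 to 0.051 for Clec4f and -0.16 to 0.27 for Vsig4 in Atg7-KO, of -0.40 to 0.026 for Vsig4 and 0.69 to 1.42 for C1qc in S351A. Between S351A and Atg7-KO it gave -5.04 to 1.00 for Cd163 and -1.05 to 0.024 for Folr2. For log2 ratios between S351A and Atg7-KO the ranges were -0.050 to 0.42 (Clec4f to C1q), -0.59 to 1.04 (Cd163 to C1q), -0.092 to 0.71 (Folr2 to C1q), -0.11 to 0.41 (C1qb to C1qa), -0.25 to 0.28 (C1qc to C1qa) and -0.35 to 0.11 (7 members to general macrophage genes). Against cont. C1qc to C1qa ranged from -0.24 to 0.59 in Atg7-KO and from -0.21 to 0.62 in S351A, and Timd4 to Clec4f from -0.43 to 0.087 in S351A. Leaving out each library, the ratio of the 7 members to C1q ranged from -2.25 to -1.88 for Atg7-KO and from -1.95 to -1.65 for S351A against cont. As the mean of the single-gene log2 ratios, which weights the 7 members equally, it was -2.72 for Atg7-KO and -1.99 for S351A. The cause of these shifts was not tested.

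Replicate numbers were not taken to pair the samples, since not every pair with the same number had r over 0.1. Deviations correlated with r from -0.041 to 0.306 for the same number, 8 of 9 being positive, and from -0.265 to 0.212 for different numbers. The 3 pairs of replicates 1 were above every pair of different numbers, and 4 of the 9 libraries correlated best with their own number in both other groups, which is a hint from the data and not the design. With the replicate block 5, 3 and 0 members were called in the 3 comparisons, as without it, and calls over all genes in Atg7-KO came to 2297 higher and 2016 lower. Depth limits the precision in S351A most for Cd163, Folr2 and Timd4, with 4, 9 and 10 counts over its 3 libraries, and the part of depth in the lack of calls between S351A and Atg7-KO was not tested.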
